A study of Mus musculus with 6 samples.

Results

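Laminins are secreted proteins of the basement membrane, the sheet of extracellular matrix under epithelia and around vessels and Schwann cells. Each is assembled inside the cell from an alpha, a beta and a gamma chain, and the alpha chain carries most of the sites that cells bind through integrins and dystroglycan. They share no role with the nuclear lamins, whose names resemble theirs. The genes described here were the laminin chain genes Lama1, Lama2, Lama3, Lama4, Lama5, Lamb1, Lamb2, Lamb3 and Lamc1, chosen by symbol, 9 of the 24411 gene symbols in the files. Another gamma chain gene, Lamc3, is given beside them.

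Poly(A) RNA of the dissected cochlear sensory epithelium was sequenced at P9 from 3 Kir2.1-OE and 3 control pools, each of 8 cochleae from 4 mice. Kir2.1-OE mice carried 1 copy each of Otof rtTA and of tetO-Kir2.1-IRES-tau-lacZ, so that doxycycline (DOX) turns on Kir2.1, a K+ channel that is an inward rectifier, where the otoferlin promoter is active, which is in hair cells and mainly in inner hair cells (IHCs). Controls were littermates with 1 copy of Otof rtTA and no Kir2.1 transgene. Both groups were on C57BL/6N and had DOX through the drinking water, so they shared rtTA and DOX and differed in the Kir2.1 transgene. The whole epithelium was measured, and in such bulk RNA a change in the number of cells of a type cannot be told apart from a change in RNA per cell.

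Between 35430940 and 41205047 reads were assigned to genes per library. Kcnj2, which encodes Kir2.1, stood at 3608, 3809 and 2211 normalized counts in the Kir2.1-OE pools and at 236, 228 and 226 in the controls, with Kir2.1-OE replicate 3 the lowest of its group. Hair cell markers (Otof, Slc17a8, Myo7a, Pou4f3, Slc26a5 and Ocm) were detected in every library, as were the supporting cell markers Sox2, Tectb and Gjb2. Transcripts of other cell types that make laminins were also present. Of the 45 genes in 8 marker lists, only Myh11 of smooth muscle was listed at 0 in a library, 1 control pool.

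All 9 laminin chain genes were higher in Kir2.1-OE than in control pools, and for each of them the lowest Kir2.1-OE pool lay above the highest control pool. In edgeR's quasi-likelihood test, with p adjusted by Benjamini-Hochberg, all 9 were called, which here means an adjusted p under 0.05 and a change of more than 1.5-fold, against 15.5% of the 15303 genes tested that were called higher. Over all genes 2365 were called higher and 778 lower, a balance that moved to 1897 and 1378 with upper quartile scaling. The median log2 fold change of the 9 was 1.11, beside 0.01 over all genes tested. The log2 fold changes ran from 0.66 for Lamb3 to 1.97 for Lama1. Lamc3 was also called, with a log2 fold change of 1.32. A lack of overlap between groups was common in these libraries, at 61.6% of the genes tested in either direction. When the change itself had to exceed 0.6 on the log2 scale (edgeR's glmTreat), 7 of the 9 remained called, all but Lama3 and Lamb3, against 5.44% of genes called higher. For this test the share among genes with transcripts as long as these was not computed.

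Laminin transcripts are long, and length mattered in this comparison. The longest annotated transcripts of the 9 genes ran from 4867 nt for Lamb3 to 11388 nt for Lama5, and 8 of the 9 were over 5000 nt. Among the 3449 tested genes with a transcript over 5000 nt, 42.4% were called higher and the median log2 fold change was 0.50. The log2 ratio of a library to the mean library rose with every doubling of transcript length by 0.20, 0.14 and 0.14 in the Kir2.1-OE pools and fell by 0.17, 0.13 and 0.19 in the controls. This trend runs along the line between the groups, so genotype and the recovery of long transcripts cannot be told apart by these libraries. The model was therefore also fitted with offsets, a correction per gene and library taken from the trend with transcript length and GC content. With the offsets 6.37% of all genes and 10.5% of those over 5000 nt were called higher, and 3 of the 9 laminin chain genes were, namely Lama1, Lama2 and Lama4, all alpha chains. The median log2 fold change of the 9 was then 0.38, beside -0.04 over all genes. Every one of the 9 stayed above 0, and 5 of the 9 had an adjusted p under 0.05 in edgeR's quasi-likelihood test with the offsets, beside 34.3% of all genes and 45.8% of those over 5000 nt. Lamb1, at 0.57, missed the call by its size, since 1.5-fold is 0.58 on this scale.

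**Figure D1:**
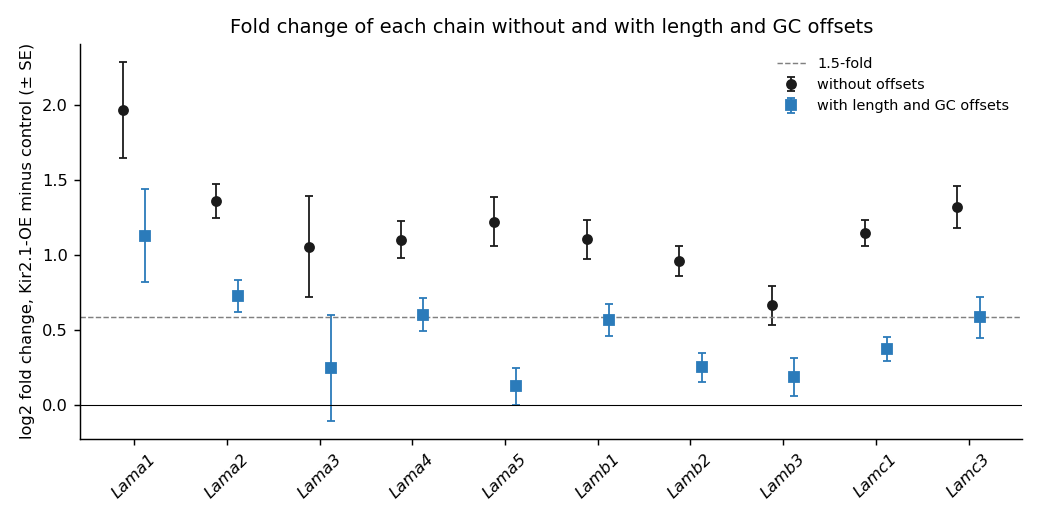
Log2 fold change (Kir2.1-OE minus control, with its standard error) of the 9 laminin chain genes and Lamc3, fitted without offsets (black circles) and with length and GC offsets (blue squares). The dashed line marks 1.5-fold. Every value drops with the offsets, and Lama1, Lama2 and Lama4 stay above the line.

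The upstream sequence of RefSeq transcript starts in build GRCm38.p6 was on hand for Lama2, Lama5, Lamb1, Lamb2 and Lamb3. Those given here belong to the more abundant alpha and beta chain genes among them, all raised together in Kir2.1-OE pools, 5′ to 3′ on the gene's strand, up to the first base annotated as an exon of the gene. The Lama2 start lies inside the annotated span of the gene, downstream of its outermost start. Capitals mark the GC box GGGCGG, the letters bound by SP family factors, read on either strand. The regions are chr10:27616943-27617192 on the minus strand for Lama2, chr2:180225860-180226109 on the minus strand for Lama5, chr12:31265043-31265233 on the plus strand for Lamb1 and chr9:108479612-108479735 on the plus strand for Lamb2.
Lama2: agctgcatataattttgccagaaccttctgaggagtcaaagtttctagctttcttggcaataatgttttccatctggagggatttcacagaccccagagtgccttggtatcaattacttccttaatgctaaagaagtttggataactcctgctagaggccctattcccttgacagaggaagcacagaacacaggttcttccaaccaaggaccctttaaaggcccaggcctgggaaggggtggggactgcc
Lama5: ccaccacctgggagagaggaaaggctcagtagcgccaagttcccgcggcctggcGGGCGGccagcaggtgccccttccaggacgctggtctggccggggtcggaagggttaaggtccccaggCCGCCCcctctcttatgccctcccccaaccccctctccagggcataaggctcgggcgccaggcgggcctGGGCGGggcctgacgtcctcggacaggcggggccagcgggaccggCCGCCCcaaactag
Lamb1: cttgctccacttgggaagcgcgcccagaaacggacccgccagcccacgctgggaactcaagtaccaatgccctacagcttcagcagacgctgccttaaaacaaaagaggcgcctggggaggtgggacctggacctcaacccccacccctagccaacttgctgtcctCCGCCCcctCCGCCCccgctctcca
Lamb2: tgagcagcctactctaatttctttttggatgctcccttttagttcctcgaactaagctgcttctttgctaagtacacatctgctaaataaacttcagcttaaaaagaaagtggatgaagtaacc
The Lama5 sequence holds 4 GC boxes and that of Lamb1 holds 2, while the 250 bases before the starts of Lama2 and Lamb2 hold none. Of 32851 windows of 250 bases in the RefSeq table, 32.7% hold at least 1. CpG dinucleotides differed in the same way, with 19 in the Lama5 window and 14 in that of Lamb1, 3 for Lamb2 and 0 for Lama2, beside a median of 6. Neither TATAAA nor the SOX core ACAAAG was found on either strand in any of the 6 laminin windows, 2 of them of Lamb3 (12.4% and 16.5% of all windows), and CCAAT was found in 1, that of Lamb1 (33.9% of all windows). The bearing of these letters on the differences between groups was not tested.

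Among the alpha chains, Lama2 had the highest mean count in both groups. It encodes the α2 chain of muscle and Schwann cell basement membranes, whose loss causes a congenital muscular dystrophy with a myelin defect. Lama2 stood at 9321, 8582 and 9338 normalized counts in the Kir2.1-OE pools and at 2949, 4092 and 3559 in the controls. The Kir2.1-OE pools lay close together and each had more than the highest control. The log2 fold change was 1.36 ± 0.11 (SE, n = 3 pools a group; adjusted p = 0.000124, edgeR's quasi-likelihood test), and with the offsets it was 0.73 ± 0.11 (SE; adjusted p = 0.00175). An antisense gene, Gm48084, shares 631 exon bases with Lama2, and whether reads were assigned by strand is not given in the sources used here.

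Lama5, the α5 chain gene of most mature epithelial and vessel basement membranes, had the next highest means, with 5958, 6390 and 4925 normalized counts in Kir2.1-OE and 3109, 2339 and 1947 in control pools. Its controls spread more widely for their size than those of Lama2, and the groups did not overlap. A log2 fold change of 1.22 ± 0.16 (SE; adjusted p = 0.000389, edgeR) became 0.13 ± 0.12 (SE; adjusted p = 0.458, edgeR) with the offsets. Lama5 has the longest and, at 59.9% GC, the most GC-rich transcript of the 9, and it lost more of its log2 fold change to the offsets than any other of the 9 genes.

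Lama4 encodes the short α4 chain, found in vessel walls and around peripheral nerve fibres (chr10:38965515-39110188, GRCm38). The Kir2.1-OE pools had 4232, 4154 and 4939 normalized counts and the controls 1704, 2375 and 2120. The log2 fold change was 1.10 ± 0.12 (SE; adjusted p = 0.000198, edgeR) without the offsets and 0.60 ± 0.11 (SE; adjusted p = 0.0041, edgeR) with them. That last value lies just over the 1.5-fold line and fell below it, to 0.50, in the fit lacking Kir2.1-OE replicate 3 and to 0.49 in the fit lacking control replicate 1.

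Lama1 (chr17:67697259-67822647), whose α1 chain is best known from the early embryo and from the retina and kidney, had the largest change of the 9 at a low level. Normalized counts were 237, 186 and 305 in Kir2.1-OE and 75.2, 78.1 and 31.5 in control pools. Control replicate 3 held less than each of the other controls by a wide margin. The log2 fold change was 1.97 ± 0.32 (SE; adjusted p = 0.00102, edgeR), falling to 1.13 ± 0.31 (SE; adjusted p = 0.0203, edgeR) with the offsets. In the fit with offsets it was 0.84 without control replicate 3, and the call was lost in the fits lacking Kir2.1-OE replicate 1 or 3, at adjusted p above 0.05 and a log2 fold change still over 0.58.

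Lama3, the α3 chain gene of the laminin that anchors stratified epithelia through hemidesmosomes, was barely detected. It had 24.6, 44.9 and 40.2 normalized counts in Kir2.1-OE and 21.0, 16.3 and 15.3 in control pools, so that Kir2.1-OE replicate 1 exceeded the highest control by only a few counts. The log2 fold change of 1.06 ± 0.34 (SE; adjusted p = 0.0262, edgeR) was the least certain of the 9. Its call was lost in 4 of the 6 fits that left out 1 library, namely without Kir2.1-OE replicate 2 (0.85), Kir2.1-OE replicate 3 (0.97), control replicate 2 (1.01) or control replicate 3 (0.97). With the offsets it was 0.25 ± 0.35 (SE; adjusted p = 0.615, edgeR). Of its exon bases, 197 are shared with the antisense gene Gm29200.

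The beta chains were led by Lamb1 and Lamb2. Lamb1 encodes the β1 chain, the most widely used beta chain of the embryo and of many adult basement membranes. It stood at 12886, 11663 and 13790 normalized counts in Kir2.1-OE and at 5603, 7189 and 5023 in control pools. Control replicate 2 was the highest of the controls and remained far below every Kir2.1-OE pool. Its log2 fold change was 1.11 ± 0.13 (SE; adjusted p = 0.000235, edgeR), and with the offsets 0.57 ± 0.11 (SE; adjusted p = 0.00427, edgeR). Leaving out 1 library at a time with the offsets moved it between 0.48 and 0.67, across the 1.5-fold line.

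Lamb2, the gene of the β2 chain of synaptic, glomerular and vessel basement membranes, had almost the same abundance. The Kir2.1-OE pools had 11190, 11598 and 8944 normalized counts and the controls 5444, 5472 and 5380. The 3 controls were nearly identical, and Kir2.1-OE replicate 3 was the lowest of its group. This gave a log2 fold change of 0.96 ± 0.10 (SE; adjusted p = 0.000169, edgeR) and, with the offsets, 0.25 ± 0.10 (SE; adjusted p = 0.0662, edgeR), which was not called.

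Lamb3, on chr1:193207699-193343878, encodes the β3 chain, the partner of α3. It was much less abundant, at 740, 788 and 619 normalized counts in Kir2.1-OE and 515, 446 and 394 in control pools, with the lowest Kir2.1-OE pool not far above the highest control. Its log2 fold change of 0.66 ± 0.13 (SE; adjusted p = 0.00248, edgeR) was the smallest of the 9. It fell under the 1.5-fold line with upper quartile scaling (0.57) and in the fits lacking Kir2.1-OE replicate 2 (0.56) or lacking control replicate 3 (0.58), and was 0.19 ± 0.13 (SE; adjusted p = 0.274, edgeR) with the offsets.

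Lamc1, on chr1:153218922-153332786, encodes γ1, the gamma chain of most laminins, and was by far the most abundant of the 9. It had 46729, 49003 and 45412 normalized counts in Kir2.1-OE and 19649, 23482 and 20483 in control pools. Both groups were tight and lay far apart. The log2 fold change was 1.15 ± 0.09 (SE; adjusted p = 0.00012, edgeR) and, with the offsets, 0.38 ± 0.08 (SE; adjusted p = 0.00676, edgeR), below the 1.5-fold line. Lamc3, the gene of the γ3 chain, rose by 1.32 ± 0.14 on the log2 scale (SE; adjusted p = 0.000185, edgeR), from 1762, 2372 and 2397 normalized counts in the controls to 5682, 6104 and 4513. With the offsets it was 0.58 ± 0.14 (SE; adjusted p = 0.0102, edgeR), just short of a call.

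The 5 genes whose profile over the 6 libraries was nearest to that of Lamc1, by the Euclidean distance between centred log2 CPM among 13642 genes, were Lrrk1, Pkd1, Tanc1, Vps13d and Arhgap32, at distances of 0.09 to 0.16. They share the 6 libraries and a long transcript, of 7465 to 15849 nt. All were called higher, with log2 fold changes of 1.05 to 1.18. This follows from their choice by likeness to Lamc1 in the same libraries and is no separate result. None was called with the offsets (0.35, 0.07, 0.31, 0.26 and 0.42). The nearest laminin chain gene was Lama4, which ranked 206 at a distance of 0.33, followed by Lamb1 at 0.34 and Lama2 at 0.36.

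To compare chains with each other, counts were divided by the length of the longest transcript and scaled to the same total in each library, which gives TPM. In the controls Lamc1 led with 177 ± 19.2 TPM (SD, n = 3 pools), followed by Lamb1 with 65.5 ± 13.3 and Lamb2 with 61.4 ± 1.28. The ranges of Lamb1 and Lamb2 overlapped, so their order is not settled. Below them Lamc3 (23.6 ± 4.01 TPM), Lama2 (23.4 ± 4.05) and Lama4 (21.8 ± 3.79) overlapped one another in turn. Lama5 had 13.8 ± 3.27 TPM and Lamb3 5.91 ± 0.79, each apart from its neighbours. Lama1, at 0.41 ± 0.18 TPM, and Lama3, at 0.11 ± 0.02, were lower by an order of magnitude or more.

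In Kir2.1-OE pools the order was the same but for Lama2 and Lamc3, which overlapped in both groups, with Lamc1 at 449 ± 18.4 TPM (SD, n = 3 pools), Lamb1 at 161 ± 15.3 and Lamb2 at 137 ± 19.7. Lama2 (68.8 ± 4.90), Lamc3 (67.4 ± 10.5) and Lama4 (53.5 ± 4.96) came next, and the ranges of Lamc3 and Lama4 overlapped. Lama5 reached 36.8 ± 4.97 TPM, Lamb3 10.7 ± 1.35, Lama1 1.86 ± 0.46 and Lama3 0.25 ± 0.07.

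**Figure D2:**
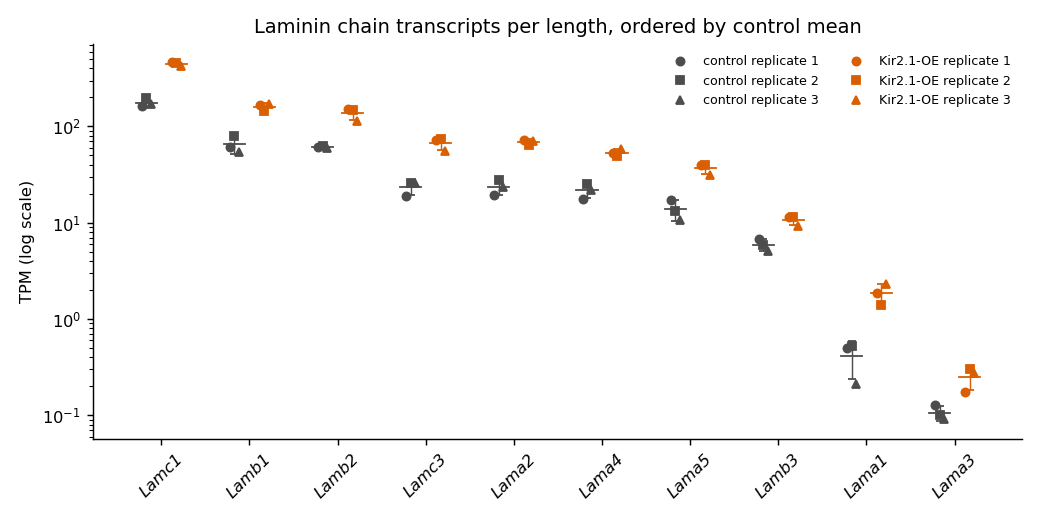
Level of each laminin chain gene per length, in TPM on a log axis, in 3 control (grey) and 3 Kir2.1-OE (orange) pools, ordered by the control mean. Symbols mark the replicate, horizontal lines the group mean and bars the SD; Lamc1 is highest and Lama1 and Lama3 lie far below the other chains in both groups.

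Set side by side as the trimers they could form, the alpha chain was the scarcest transcript in all 7 combinations with γ1 considered, in all 6 pools (α1, α2, α4 or α5 with β1, and α2, α4 or α5 with β2). For α2 with β1 and γ1, Lamb1 had 2.35 to 3.16 times the TPM of Lama2 in the controls and 2.26 to 2.45 times in the Kir2.1-OE pools, while Lamc1 exceeded Lama2 by 7.24 to 8.40 times in controls and by 6.13 to 7.20 times in Kir2.1-OE. For α5, Lamb1 exceeded Lama5 by 3.55 to 6.05 times in the controls and 3.59 to 5.51 times in Kir2.1-OE. With γ3 in place of γ1, Lamc3 and Lama2 were at nearly the same level, with a ratio of 0.95 to 1.10 in controls and 0.79 to 1.16 in Kir2.1-OE pools. The α3 and β3 chains, which belong to the same epithelial laminin, were uneven. Lamb3 had 53.0 to 59.1 times the TPM of Lama3 in the controls and 33.4 to 65.2 times in Kir2.1-OE. Transcripts do not show which trimers were assembled, and no protein was measured.

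Summed over the 5 alpha chains there were 167, 154 and 162 TPM in Kir2.1-OE and 55.1, 66.8 and 56.6 in control pools. The 3 beta chains summed to 330, 302 and 295 against 129, 149 and 120, and Lamc1 and Lamc3 to 536, 531 and 484 against 182, 225 and 195. For these and for the shares below the exact two-sided permutation test of 3 against 3 pools cannot go under 0.10. The sum of beta over the sum of alpha chains was 1.97, 1.96 and 1.82 in Kir2.1-OE and 2.34, 2.23 and 2.13 in control pools, without overlap (exact permutation p = 0.10). Gamma over beta was 1.63, 1.76 and 1.64 against 1.41, 1.51 and 1.62, barely without overlap (exact permutation p = 0.10). Gamma over alpha was 3.20, 3.45 and 2.98 against 3.30, 3.37 and 3.45, with overlap (exact permutation p = 0.30). The alpha chain transcripts are all longer than those of the beta chains, while Lamc1 (7622 nt) is longer than Lama4 (6046 nt) and shorter than the other alpha chains. TPM carries no correction for the length trend described above.

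Within the alpha chains, Lama2 made up 43.7%, 41.2% and 43.0% per length in the Kir2.1-OE pools and 35.2%, 41.2% and 41.3% in the controls. Control replicate 1 stood apart, with Lama5 at 31.3% of the alpha chains against 19.9% and 19.1% in the other controls. None of the alpha chain shares separated the groups. Among the beta chains Lamb1 and Lamb2 each took about the same part, with Lamb1 at 51.0%, 47.6% and 58.1% in Kir2.1-OE and 47.4%, 53.9% and 45.6% in control pools. Lamb3 made up 3.48%, 3.82% and 3.10% in Kir2.1-OE and 5.18%, 3.97% and 4.25% in control pools, lower in each Kir2.1-OE pool than in any control. The exact permutation p of the Lamb3 difference was 0.10, the smallest possible, and 0.5 after Benjamini-Hochberg adjustment over the 10 shares. Its transcript is the shortest of the 3 beta chain genes, and the part of the length trend in this difference was not tested. Lamc1 exceeded Lamc3 by 6.33, 6.18 and 7.75 times in Kir2.1-OE and by 8.59, 7.63 and 6.58 times in control pools, with overlap.

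**Figure D3:**
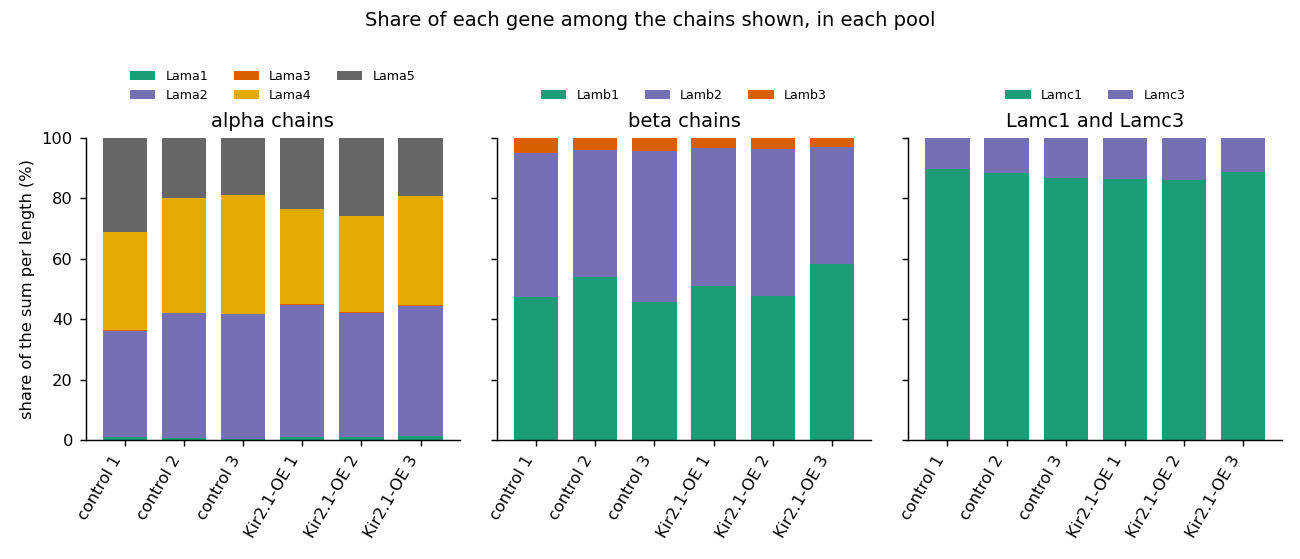
Share of each gene in the summed alpha chain, beta chain, and Lamc1 and Lamc3 transcripts per length (%), as stacked bars for each of the 3 control and 3 Kir2.1-OE pools. The third panel holds Lamc1 and Lamc3 alone. Lamb1 and Lamb2 keep similar parts in both groups, and the Lamb3 band is narrower in every Kir2.1-OE pool (3.10% to 3.82%) than in the controls (3.97% to 5.18%).

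The pools of a group did not vary alike for all chains. In Kir2.1-OE replicate 3, where Kcnj2 was lowest, Lama5, Lamb2, Lamb3 and Lamc3 lay below their group means, at log2 deviations of -0.22, -0.23, -0.20 and -0.26. In the same pool Lama1, Lama3, Lama4 and Lamb1 lay above theirs, by 0.36, 0.18, 0.16 and 0.11. Lamb1 over Lamb2, in TPM, was accordingly higher there than in the other Kir2.1-OE pools, at 1.12 and 0.98. Control replicate 1 differed from its group in another way, with Lama1, Lama5, Lama3 and Lamb3 above their means by 0.40, 0.36, 0.28 and 0.20 and Lamc3, Lama4 and Lama2 at deviations of -0.29, -0.26 and -0.25. The widest deviation was that of Lama1 in control replicate 3, at -0.85. These spreads did not bring the groups of any of the 9 genes into overlap.

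**Figure D4:**
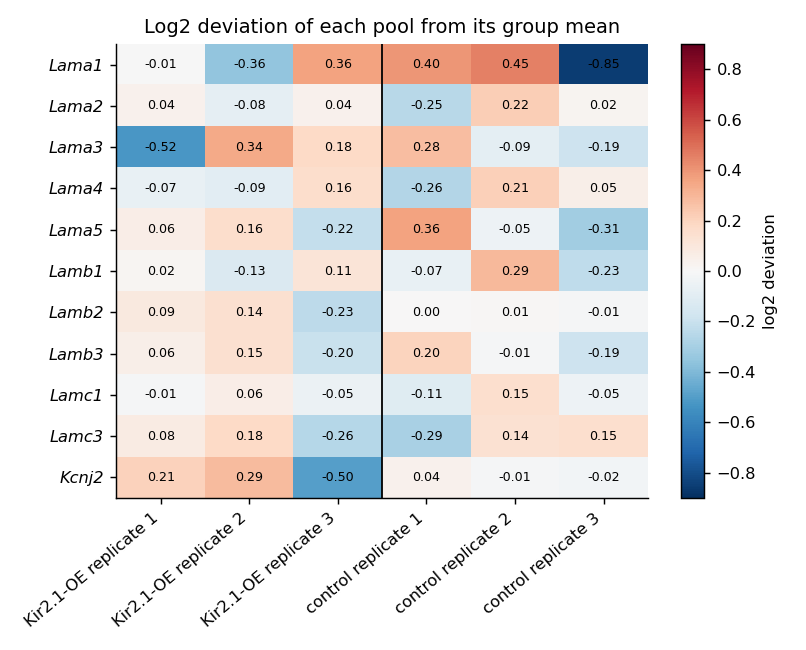
Log2 deviation of every pool from the mean of its own group, for the laminin chain genes and Kcnj2 (red above, blue below, values printed in the cells). Lama5, Lamb2, Lamb3 and Lamc3 are low in Kir2.1-OE replicate 3, the pool with the least Kcnj2 (-0.50), while Lama1, Lama3, Lama4 and Lamb1 are high there.

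Genes for the proteins that bind, anchor or cut laminins were listed alongside. Of 41 tested in 7 lists, 15 were called higher and 0 lower by edgeR, with 5 lower at an unadjusted p under 0.05, and DESeq2 and limma-voom also called 0 lower. Over all genes 15.5% were called higher, and 42.4% of those over 5000 nt, a length that 16 of these 41 genes and 9 of the 15 called exceed. With the offsets 6 were higher and 1 lower, beside 6.37% of all genes called higher. Among the 8 receptor genes, the integrin alpha chain genes Itga3, Itga6 and Itga7 and the hemidesmosomal beta chain gene Itgb4 were called, with log2 fold changes of 0.67, 0.59, 0.96 and 0.80. The call of Itga3 was lost in the fit lacking Kir2.1-OE replicate 2 (0.57), and that of Itga6 in the fits lacking Kir2.1-OE replicate 3 (0.49) or lacking control replicate 3 (0.50), with upper quartile scaling (0.51) and with DESeq2 (0.58). Itgb1, the beta chain that α3, α6 and α7 integrins share, was at 22069, 22876 and 24020 normalized counts against 20427, 22624 and 22692, with overlapping groups and a log2 fold change of 0.07. Dag1 (dystroglycan) and Bcam, a receptor for α5, had 0.36 and 0.53, and the tetraspanin gene Cd151 had -0.45, none of them a call. With the offsets edgeR called 0 of the 8 receptor genes, 5 having an unadjusted p under 0.05, and Itgb4 was at -0.01. Itga6 (0.41), Itga7 (0.57) and Cd151 (-0.30) missed the call there by size alone, at adjusted p = 0.0137, 0.0078 and 0.0324 (edgeR).

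Of the basement membrane partners, Hspg2 (perlecan), Nid1 (nidogen-1, which links γ1 to collagen IV) and Agrn (agrin) were called with log2 fold changes of 1.56, 0.86 and 0.63, and Nid2 was not, at 0.46. Agrn missed the 1.5-fold line in the fit lacking Kir2.1-OE replicate 2 (0.53) and with upper quartile scaling (0.54). Hspg2 had 17968, 20117 and 18971 normalized counts in Kir2.1-OE and 7295, 6635 and 5420 in control pools. With the offsets edgeR called 0 of the 4, 3 having an unadjusted p under 0.05, and Agrn changed sign, to -0.29. Hspg2 (0.38), Nid1 (0.34) and Agrn missed the call there by size alone, at adjusted p = 0.00959, 0.026 and 0.0257 (edgeR). The genes of the hemidesmosome list were among the largest changes of the 7 lists. Dst, Plec and Col7a1, which encode a plakin, plectin and the anchoring fibril collagen, had log2 fold changes of 2.27, 1.58 and 2.06. Dst (1.37) and Col7a1 (0.99) were also called with the offsets, and Col17a1, at 4.01 to 11.0 normalized counts, was too low to test. Dst stood at 5669, 4356 and 4029 normalized counts against 950, 1147 and 824, and its longest transcript has 23279 nt.

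In the dystroglycan complex and its glycosylation, 2 of 10 genes were called, Utrn (utrophin, 2.03) and Sgcd (δ-sarcoglycan, 0.92), both also with the offsets (1.33 and 1.01). The Sgcd call was lost in the 4 fits that lacked Kir2.1-OE replicate 1 (0.72), Kir2.1-OE replicate 2 (0.83), control replicate 1 (0.81) or control replicate 2 (0.87), and with the replicate block (0.90). The glycosyltransferase genes Pomt1, Pomt2 and Pomgnt1 had log2 fold changes of 0.04, -0.14 and -0.22. Of the 6 netrin genes, whose proteins share the laminin short arm fold, Ntng1 (0.97) and Ntng2 (0.82) were called without and with the offsets (0.66 and 0.80). Ntn3 was called lower only with them, at -0.68. Of 7 genes for enzymes that cut laminin chains, Tll2 alone was called (0.80, at 58.4, 73.9 and 70.8 normalized counts against 30.1, 52.6 and 33.6). Its call was lost with upper quartile scaling (0.71), with the offsets (0.41) and in 5 of the 6 fits that lacked 1 library, all but the one lacking control replicate 2, over which the log2 fold change ran from 0.64 to 1.09. Bmp1 and Mmp14 had 0.54 and 0.55, both under 1.5-fold. None of the 3 nuclear lamin genes was called by edgeR, DESeq2 or limma-voom: Lmna had 0.47, Lmnb1 -0.05 and Lmnb2 0.05. Lmna missed the call by its size alone, with an adjusted p of 0.00362 (edgeR) and no overlap between groups.

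Markers of cell types that lie on or within laminin sheets were summed per pool, and some of them were called higher in Kir2.1-OE pools, where 15.5% of all genes were and 42.4% of those over 5000 nt, a length that 12 of the 45 markers exceed. A sum is carried by the most abundant genes of its list. The summed normalized counts of 5 Schwann cell markers (Mbp, Pmp22, Sox10, Egr2 and Prx) ran from 153492 to 199986 in Kir2.1-OE and from 103853 to 131416 in control pools, and 2 of the 5 were called higher (Egr2 and Prx). The 6 endothelial markers summed to 6673 to 6969 against 3626 to 4749, with 4 of the 6 called and Cldn5 at a log2 fold change of -0.03, and the 6 pericyte and smooth muscle markers to 11562 to 12010 against 7032 to 8038, with 4 called. The 5 spiral ganglion neuron markers ran from 15016 to 38436 against 7765 to 12503, with 3 called and Prph at 0.14. Their median log2 fold changes were 0.56, 0.77, 0.63 and 1.10, and with the offsets 0.52, 0.50, 0.30 and 1.09. The 7 fibrocyte and mesenchyme markers summed to 377704 to 435192 against 332354 to 409266, with overlap. Col1a1 and Coch were called higher (0.71 and 0.63) and Otor lower (-0.75). Dcn (-0.41) and Lum (-0.49) were lower and Col1a2 (0.52) and Pou3f4 (0.30) higher, all without overlap, and missed the call by size. With the offsets Coch alone was called (0.75), while Col1a1 was at -0.03 and Otor at -0.31. The median of this list was 0.30 without the offsets and -0.05 with them. The 6 hair cell markers summed to 28347 to 35340 against 29412 to 35389, also with overlap. Of these, 3 were called higher, Otof, Myo7a and Slc26a5 (0.76, 1.17 and 0.62). Ocm, the most abundant, was at -0.30, and Slc17a8 and Pou4f3 were at 0.09 and 0.05. With the offsets Slc26a5 alone was called (0.71), while Otof was at -0.10 and Myo7a at 0.30. The median of the hair cell list was 0.36 without the offsets and 0.17 with them. Supporting cell markers summed to 222962 to 238944 against 260820 to 355918, lower in every Kir2.1-OE pool. Most of that sum was Tectb, called lower (-0.69), at 128596, 142543 and 149136 normalized counts against 282142, 216037 and 180608. Otog was called higher (0.81), and Sox2, Gjb2, Gjb6 and Fgfr3 were not called (-0.35, 0.04, 0.08 and 0.32). With the offsets Tectb was still called lower (-0.59), while Otog was at -0.21 and not called. The median of the supporting cell list was 0.06 without the offsets and -0.11 with them. The 4 macrophage markers summed to 4037 to 4307 against 3108 to 3277, with 0 called by edgeR, DESeq2 or limma-voom. Csf1r and Cx3cr1 missed the call by size (0.47 and 0.24), at adjusted p = 0.000772 and 0.0471 (edgeR). The part of these cell types in the laminin differences was not tested.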

How the data were processed

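The authors aligned poly(A) RNA-seq reads to mm10 with the nf-core pipeline, quantified genes with Salmon and deposited the expected counts, estimates neither divided by length nor scaled for depth; Salmon's version is not given in the sources used here. The column header of control replicate 1 names another replicate number than its label, and the label was used. Groups were taken from the labelled genotype. Counts were rounded, filtered with filterByExpr and scaled by TMM, and the 2 groups were compared with edgeR 4.0.16 (quasi-likelihood test, Benjamini-Hochberg over 15303 genes) in R 4.3.3. A gene was called at an adjusted p under 0.05 and over 1.5-fold. The edgeR p-values set the difference between groups against the spread between pools, and the spread between single mice was not measured. Normalized counts are counts per TMM-scaled library at the geometric mean depth.

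The 9 genes, the partner lists and the markers were chosen with earlier results of these data known. Named genes are the 9, Lamc3, Kcnj2, the called genes of each partner list (with its most abundant genes where fewer than 2 were called) and the 5 genes nearest to Lamc1; other list members given for completeness were named after their values were seen. Some genes of these lists are not reported here. Lengths, exons and coordinates came from GENCODE vM21, matched by symbol, and GC content from the same transcripts. Offsets were loess trends (span 0.4) of each library's log2 ratio on log length and GC content. Promoter sequences came from RefSeq, build GRCm38.p6. Shares were compared by exact two-sided permutation tests. The model was tested on simulated data. Alternatives were other scalings and filters, a replicate block, DESeq2 1.42.0, limma 3.58.1 (voom), unrounded counts, glmTreat, other transcript lengths and each library left out.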

Additional observations from a re-analysis of the deposited data

How the results depend on the processing

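All 9 laminin chain genes kept a log2 fold change above 0 under all 18 alternatives to the model, and 139 of those 162 values kept their side of the threshold. The count of 9 called fell to 3 with the length and GC offsets and to 2 with the replicate block and the offsets together. With the replicate block alone 8 were called, Lama3 being lost. The deviations of same-numbered pools had correlations of -0.11, -0.23 and -0.21, so no pool correlated best with its own number. Deviations within groups of 3 pools are tied to each other, so these values show no pairing by number but cannot exclude it. The number of control replicate 1 also differs between its label and its column header. With 1 library left out the count ranged from 7 to 9. Leaving out 1 library in the fit with offsets, a combination added after seeing the data, gave from 1 (without Kir2.1-OE replicate 3, where Lama2 was called) to 4. Over all genes 2365 were called higher and 778 lower. These became 975 and 526 with the offsets, 794 and 451 with the replicate block and the offsets, 832 and 57 by glmTreat, and 1378 lower with upper quartile scaling (1897 higher). Leaving out 1 library gave 1878 to 2527 higher and 536 to 1074 lower. Among partner genes Itgb4 and Agrn turned to -0.014 and -0.29 with the offsets and to -0.0089 and -0.29 with the block and the offsets, and Lmnb1 to 0.048 without control replicate 2. The share difference of Lamb3 was -0.15 points with the median transcript length. The median coding transcript of Lamb2 is a fragment of 409 nt, which raises its level and makes that alternative unsuitable for the beta chains. Lama3, with under 50 counts in every library, is limited by depth.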
